A study of Oryza sativa with 12 samples.

Results

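Flag leaves of wild-type rice left without water for 3 days (WT_stressed) were compared with flag leaves of watered rice carrying PSARK::IPT (IPT_watered). The comparison takes the 3 arrays labelled as wild type under water stress and the 3 labelled as watered PSARK::IPT, 6 of the 12 Affymetrix rice arrays of the study, so genotype and water differ at once. The other 6 arrays are 3 of PSARK::IPT plants without water for 3 days (IPT_stressed) and 3 of watered wild type (WT_watered). All plants were 10 weeks old and grown in a greenhouse, and the stress was applied before flowering. The labels call the replicates biological, with no word on pooling of plants. The titles of all 6 transgenic arrays carry the mark 5T, which the labels do not explain. PSARK is a promoter of a senescence-associated receptor kinase, so the transgene is driven mainly in ageing tissue.

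The IPT enzyme makes the precursor of the cytokinins, hormones that delay leaf ageing. Abscisic acid (ABA) builds up when water is short: its receptors bind and inhibit protein phosphatases of type 2C, which frees SnRK2 kinases (SAPK in rice) to activate bZIP transcription factors and, through them, dehydrins and other protective proteins. Cytokinin is sensed by histidine kinases, passed on by phosphotransfer proteins to type-B response regulators, and these switch on type-A regulators, which damp the signal and serve as its markers.

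Of 64 probe sets for foreign reporter sequences, 2 followed labelled water and not labelled genotype. The reporter probe set RPTR-Os-K01193-1_at had log2 values of 9.03, 8.71 and 9.19 on the WT_stressed arrays, against 2.15, 1.99 and 2.11 on the IPT_watered arrays. It read 9.86, 10.37 and 10.26 on the IPT_stressed arrays, and 2.06, 2.35 and 6.03 on the WT_watered arrays. RPTR-Os-AF292559-4_s_at behaved the same way, at 7.81, 7.03 and 8.20 in WT_stressed against 1.96, 2.16 and 2.22 in IPT_watered. Both were thus high on the arrays labelled stressed, of either labelled genotype. If the labels of WT_stressed and IPT_watered were exchanged, both would be high on PSARK::IPT arrays and low on wild-type arrays apart from WT_watered replicate 3. The files do not say which foreign sequences the construct carries, so every result below is given by label. For the ABA, dehydrin, drought, senescence and cytokinin genes the meaning under each reading is stated. For all other genes, exchanged labels would make the WT_stressed values those of watered PSARK::IPT, and the reverse. A labelled water effect would then be one of genotype, and a labelled genotype effect one of water.

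Other controls split the arrays by labelled genotype instead. The mean of 21 probe sets for the Bio spike-in controls was 11.47, 11.99 and 11.80 in WT_stressed, against 8.28, 8.30 and 8.68 in IPT_watered, and averaged 8.45 ± 0.29 (SD, n = 3) in IPT_stressed and 10.88 ± 0.22 in WT_watered. The 3' probe set of GAPDH exceeded the 5' one by 6.34, 7.07 and 7.30 log2 units in WT_stressed, against 3.72, 3.74 and 3.44 in IPT_watered. A large gap of this kind is read as a sign of RNA that is degraded or was copied incompletely. It was 3.86 ± 0.48 in IPT_stressed and 5.99 ± 1.05 in WT_watered. Under exchanged labels these controls would split the arrays by water. RPTR-Os-J01636-1_at followed the spike-in controls, at 6.37 ± 0.26 in WT_stressed and 3.35 ± 0.08 in IPT_watered.

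**Figure D1:**
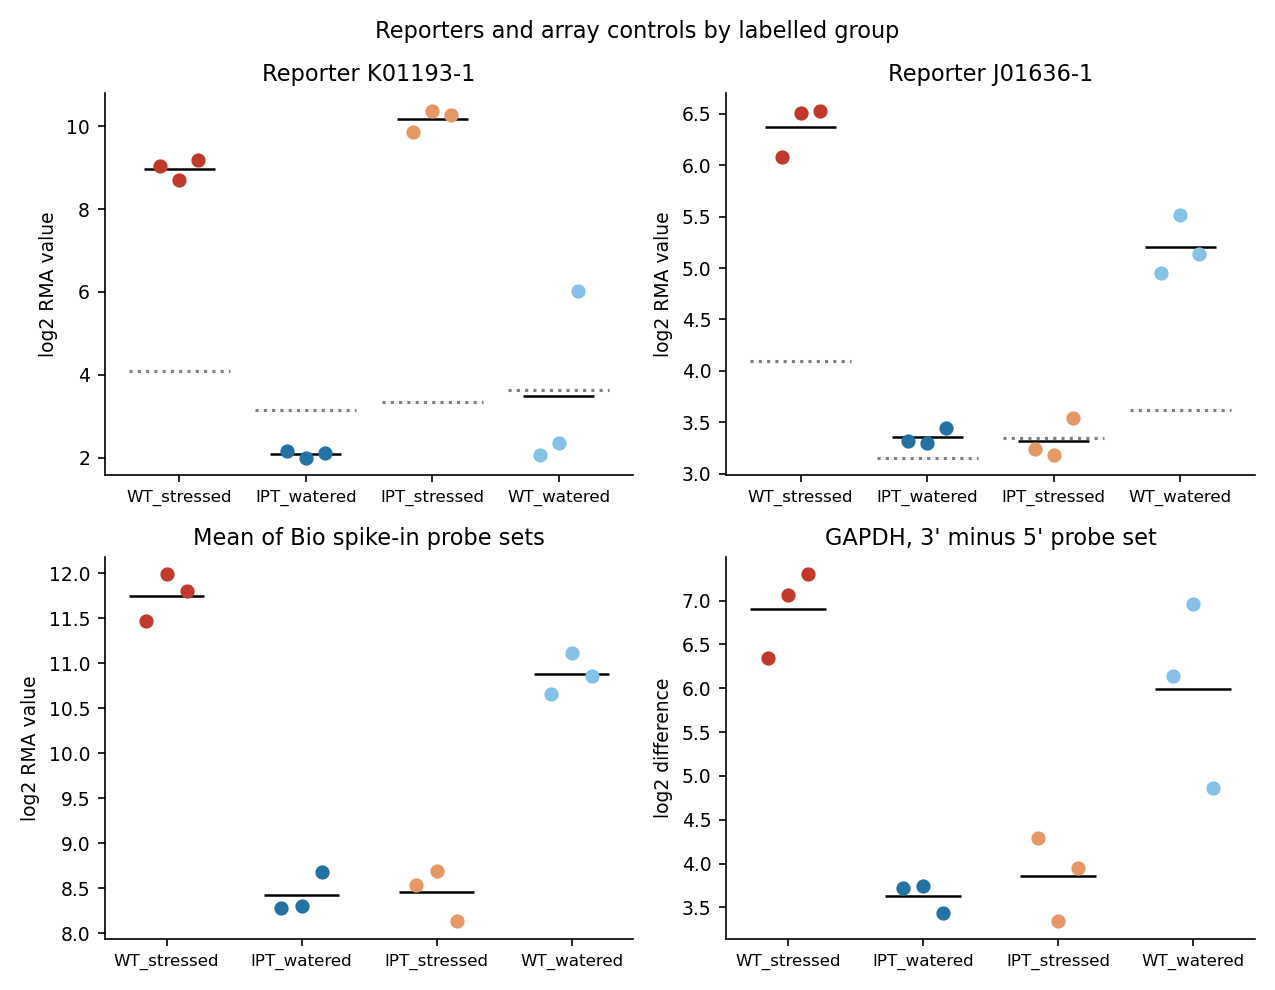
Values of each array (points) with group means (black lines) for 2 reporter probe sets, the Bio spike-in mean and the GAPDH 3' minus 5' difference, on log2 axes that do not start at 0; dotted lines are the background level of each group. K01193-1 is high in WT_stressed (8.98) and IPT_stressed (10.16), while the spike-in mean is high in WT_stressed (11.75) and WT_watered (10.88).

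Of 5 photosynthesis genes that define the leaf, 4 were above background in both groups, while RBCS1 lay at background in both, at 3.63 in WT_stressed and 2.75 in IPT_watered. CAB2R, a chlorophyll-binding protein of the light-harvesting complex, averaged 13.49 ± 0.03 in WT_stressed and 13.01 ± 0.46 in IPT_watered, and OsrbcS, the small subunit of Rubisco, averaged 13.25 ± 0.31 in WT_stressed and 13.04 ± 0.57 in IPT_watered. Of 24 genes of panicle, floral organ and anther, 14 lay at background in both groups, among them OsMADS3, OsMADS58, OsC6 and OsMEL1. In limma 5 of the 24 were higher in WT_stressed and 4 lower, against 9.86% and 32.9% of all genes, and the median difference was -0.08. The summed linear level of the 24 genes was 304 to 407 in WT_stressed, against 511 to 800 in IPT_watered. OsMADS14, a flowering gene that leaves also express, fell, at 6.16, 5.15 and 7.01 in WT_stressed against 7.49, 8.71 and 7.27 in IPT_watered, and was the brightest of the 24 in both groups. OsMADS4 rose, averaging 5.03 in WT_stressed and 3.83 in IPT_watered. OsMADS1 had the largest fall of the list, with a log2 difference of -2.33 ± 0.24 (SE). OsMADS16 differed by -1.18 and DL by 0.61. Among the 4 members with a mean of at least 5, 3 fell and 0 rose, with a median of -1.45. Of all genes at that level 44.1% fell and 5.56% rose. The part of such genes in the results below was not tested. In whole leaves, fewer cells of a type and less RNA per cell cannot be told apart.

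More genes were lower in WT_stressed than were higher. With 1 probe set per gene, 5894 of 17905 genes (32.9%) were lower in WT_stressed and 1766 (9.86%) were higher at an adjusted p under 0.05 in limma, and the median difference was -0.24. Over all 57194 probe sets, 24226 (42.4%) passed, 13578 of them higher (23.7%) and 10648 lower (18.6%), so that 56% of these calls were higher. That share was 30.9% with array medians made equal. The direction went with the level: among genes with a mean of at least 5, 44.1% were lower and 5.56% higher, against 16.9% lower and 16% higher among dimmer genes. The background level, set by probe sets for foreign sequences, was itself higher in WT_stressed (4.10) than in IPT_watered (3.15). When the GAPDH difference of each array was put into the fit, 27 probe sets passed and no gene of the ABA, drought, senescence or cytokinin lists, while the median standard error grew to 0.412, against 0.173 without it. The list medians were as far below 0 as before or farther, at -0.81 for ABA, -1.32 for drought, -1.03 for senescence and -0.33 for cytokinin genes, against -0.76, -1.17, -0.62 and -0.24 without the term. At an unadjusted p under 0.05 that fit gave 27 of 74 ABA, 9 of 20 drought, 3 of 18 senescence and 12 of 29 cytokinin genes. Of all 57194 probe sets 9754 passed at that level in the same fit, and the senescence share was near this. The lists hold 1 probe set per gene, and the share over genes in that fit is not given here. The GAPDH difference lies so nearly along the labelled genotypes that the 2 cannot be told apart here.

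**Figure D2:**
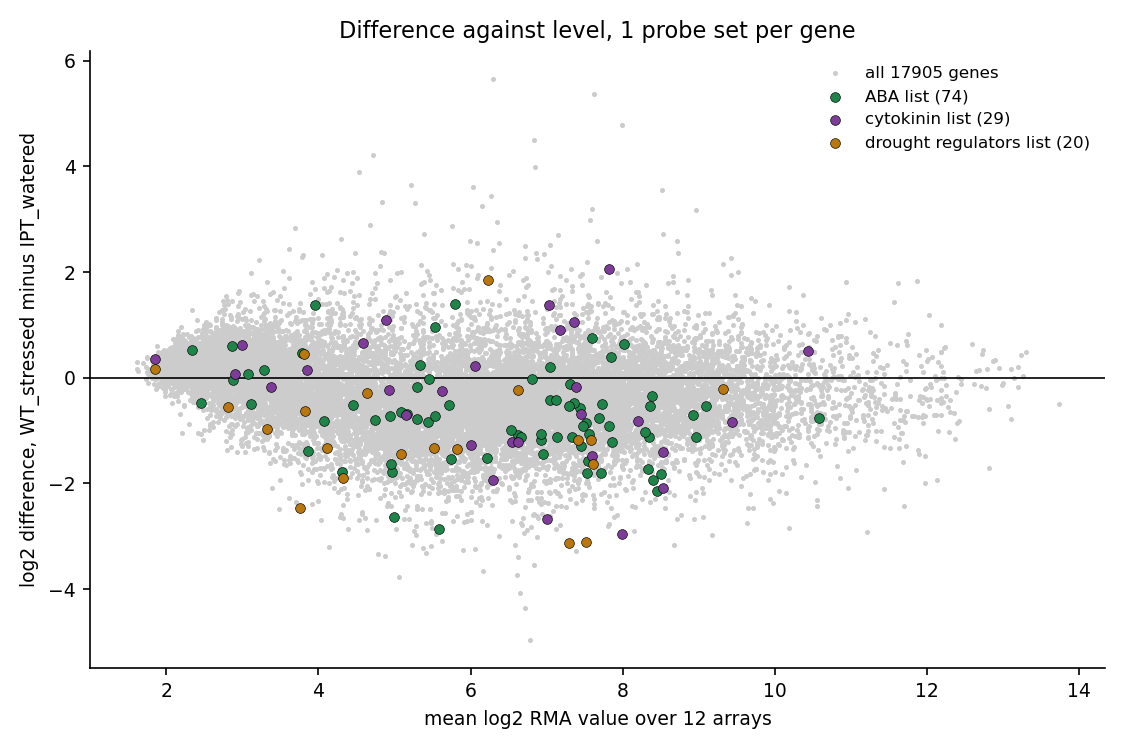
Difference between WT_stressed and IPT_watered (log2, vertical) against the mean level over all 12 arrays (log2, horizontal) for 17905 genes (grey) and the members of 3 lists (coloured). Points above 0 are higher in WT_stressed; ABA and drought list members lie mostly below 0, with medians of -0.76 and -1.17, against -0.24 for all genes.

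Members of the ABA list were mostly lower in WT_stressed. Most members are type 2C phosphatases, 55 in number, which gave 33 of the falls. A minority of this family are ABA coreceptors, so the counts are not all of ABA signalling. Of 74 ABA list members 45 fell and 6 rose, against 32.9% and 9.86% of all genes, and the median difference was -0.76. Among the 56 members with a mean of at least 5, 36 fell and 4 rose, against 44.1% and 5.56% of genes at that level. After quantile normalization 27 of the 74 fell. In that fit 16296 of all 57194 probe sets passed in either direction, 50.7% of them higher. This is not a share of falling genes, so it cannot show whether 27 of 74 exceeds that share. The median difference in that fit was -0.48 for the list and -0.08 for all genes.

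The synthesis gene OsZEP1, which encodes zeaxanthin epoxidase, had 10.06, 9.87 and 10.96 in WT_stressed, against 10.98, 11.42 and 10.80 in IPT_watered. The third WT_stressed array lay inside the range of IPT_watered, and the fitted difference was -0.77 ± 0.26 (SE; adjusted p = 0.0312). OsABA8ox2, an ABA 8'-hydroxylase that breaks ABA down, had 6.99, 7.08 and 6.88 in WT_stressed, against 8.29, 8.0 and 7.88 in IPT_watered. It was 2.1-fold lower (adjusted p = 0.000919), with no overlap of the arrays. Its relative OsABA8ox1 was at background in WT_stressed and at least 2.15-fold lower there, but its IPT_watered arrays were spread widely, at 5.06, 7.07 and 3.49. The synthesis gene and both breakdown genes on the list were thus lower in WT_stressed, but the arrays of OsZEP1 and OsABA8ox1 overlapped. OsZEP1 was the only synthesis gene matched by name, and the NCED genes of ABA synthesis were not on the list. Of 2 beta-glucosidases on the list, Os3bglu7 was 1.8-fold lower and Os1bglu1 lay at background in both groups.

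The receptor OsPYL11 had 8.82, 8.55 and 7.41 in WT_stressed, against 9.30, 9.31 and 9.57 in IPT_watered, and was 2.19-fold lower (adjusted p = 0.00819). The phosphatases made up most of the list: 33 of 55 fell and 4 rose, against 32.9% and 9.86% of all genes. Among the 41 with a mean of at least 5, 25 fell and 3 rose, against 44.1% and 5.56% of genes at that level. The list takes the whole type 2C family, of which a minority are ABA coreceptors. OsPP2C68, one of these coreceptors, had 3.74, 4.90 and 3.84 in WT_stressed, against 7.86, 7.78 and 5.43 in IPT_watered. It was 7.27-fold lower (log2 difference -2.86 ± 0.56, adjusted p = 0.00213), the largest fall of the list. OsPP2C06 was 3.29-fold lower and OsPP2C09 3.54-fold lower, both also coreceptors. The coreceptors named here do not stand for the whole class. OsPP2C30 and OsPP2C08, of the same family, had overlapping arrays and did not pass (adjusted p = 0.325 and 0.302). OsPP2C30 averaged 8.23 in WT_stressed and 8.77 in IPT_watered, and OsPP2C08 averaged 7.01 in WT_stressed and 7.43 in IPT_watered. The smallest p belonged to OsPP2C10, with 7.60, 7.16 and 7.14 in WT_stressed, against 9.45, 9.60 and 9.27 in IPT_watered (4.4-fold lower, adjusted p = 1.87e-05).

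Other members with small p-values were OsPP2C66 (2.91-fold lower), OsPP2C44 (3-fold lower), OsPP2C48 (3.49-fold lower), OsPP2C35 (2.84-fold lower) and OsPP2C71 (2.46-fold lower). OsPP2C32, OsPP2C13 and OsPP2C26 were at background in WT_stressed and at least 4.24-fold, 3.29-fold and 2.58-fold lower. OsPP2C73 rose, at 4.65, 4.72 and 4.47 in WT_stressed against 3.25, 2.99 and 3.47 in IPT_watered. Probe sets of a gene did not always go together: a second one for OsPP2C71 was higher in WT_stressed, by 0.53 log2 units, and one for OsPP2C66, at background in both groups, by 0.73.

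Of 10 SAPK kinases 6 fell and 1 rose, against 32.9% and 9.86% of all genes. These calls were among the 9 kinases with a mean of at least 5, against 44.1% and 5.56% of genes at that level. OsSAPK4 had 6.88, 7.06 and 6.02 in WT_stressed, against 8.74, 8.58 and 8.07 in IPT_watered, and was 3.5-fold lower (adjusted p = 0.00105). OsSAPK8, an ABA-activated member, was 1.9-fold lower (adjusted p = 0.000199). OsSAPK9, also ABA-activated, went the other way, with 6.92, 6.28 and 6.61 in WT_stressed against 4.86, 5.32 and 5.42 in IPT_watered (2.65-fold higher, adjusted p = 0.00188). Of 3 transcription factors OsBZIP23, an activator of ABA-responsive genes, fell, at 7.92, 7.57 and 6.86 in WT_stressed against 10.21, 9.33 and 8.62 in IPT_watered (3.82-fold lower, adjusted p = 0.00127).

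As labelled, these values mean that 45 of the 74 list genes were lower in stressed wild type than in watered PSARK::IPT. Of these 45 genes, 33 are phosphatases of the whole type 2C family. If the 2 labels were exchanged, the same 45 genes would be higher in stressed wild type than in watered PSARK::IPT. The test cannot tell the readings apart, since it only sets the 3 arrays of one label against the 3 of the other.

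Dehydrins and LEA proteins, which protect cell contents when water is lost, were mostly too dim to compare. Of 9 members 5 lay at background in both groups. In limma 1 of the 9 fell and 1 rose, against 32.9% and 9.86% of all genes. OsDhn1 had 6.90, 7.43 and 6.49 in WT_stressed, against 9.77, 9.13 and 8.56 in IPT_watered. It was 4.63-fold lower (log2 difference -2.21 ± 0.32, adjusted p = 0.00033) and its arrays did not overlap. A second probe set of OsDhn1, at background in both groups, differed by 0.42. RAB21, the drought-induced dehydrin of rice, had 3.92, 3.46 and 3.87 in WT_stressed, against 4.99, 3.09 and 4.30 in IPT_watered, with an adjusted p of 0.453. RAB16C and OsLEA3-1 did not pass either, and RAB16D passed only with values at background in both groups. On the exchanged reading OsDhn1 would be 4.63-fold higher in stressed wild type.

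Of 20 regulators and enzymes of drought tolerance 12 fell and 1 rose, against 32.9% and 9.86% of all genes, with a median of -1.17. DREB1A, among the falls, lay at background in both groups. Among the 11 members with a mean of at least 5, 8 fell and 1 rose, against 44.1% and 5.56% of genes at that level. OsHox22, a homeodomain-leucine zipper factor, had 5.67, 6.20 and 5.46 in WT_stressed, against 9.67, 9.13 and 7.90 in IPT_watered. It was 8.71-fold lower (adjusted p = 8.5e-05). INO1, the inositol phosphate synthase that starts inositol synthesis, had 6.26, 6.18 and 5.48 in WT_stressed, against 9.36, 9.62 and 8.24 in IPT_watered, and was 8.58-fold lower (adjusted p = 0.000176). For both genes the highest WT_stressed array lay well under the lowest IPT_watered one.

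OsP5CS2 and OsP5CS1, which make proline, were 2.73-fold and 3.13-fold lower in WT_stressed, although 2 probe sets of OsP5CS2 at background differed by 0.52 and 0.83. OsBADH1, a betaine aldehyde dehydrogenase, was 2.25-fold lower (adjusted p = 5.19e-05). Among the factors, OsDREB2B was 2.53-fold lower, whereas SNAC2 had 9.35, 9.04 and 9.58 in WT_stressed against 9.70, 10.15 and 8.77 in IPT_watered and did not pass. OsTPP1, a trehalose-phosphate phosphatase, was the member that rose, at 7.06, 7.09 and 7.58 in WT_stressed against 4.74, 4.96 and 6.44 in IPT_watered (3.64-fold higher, adjusted p = 0.00226). As labelled, stressed wild type thus had less of 12 drought genes than watered PSARK::IPT; exchanged, it would have more of them.

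**Figure D3:**
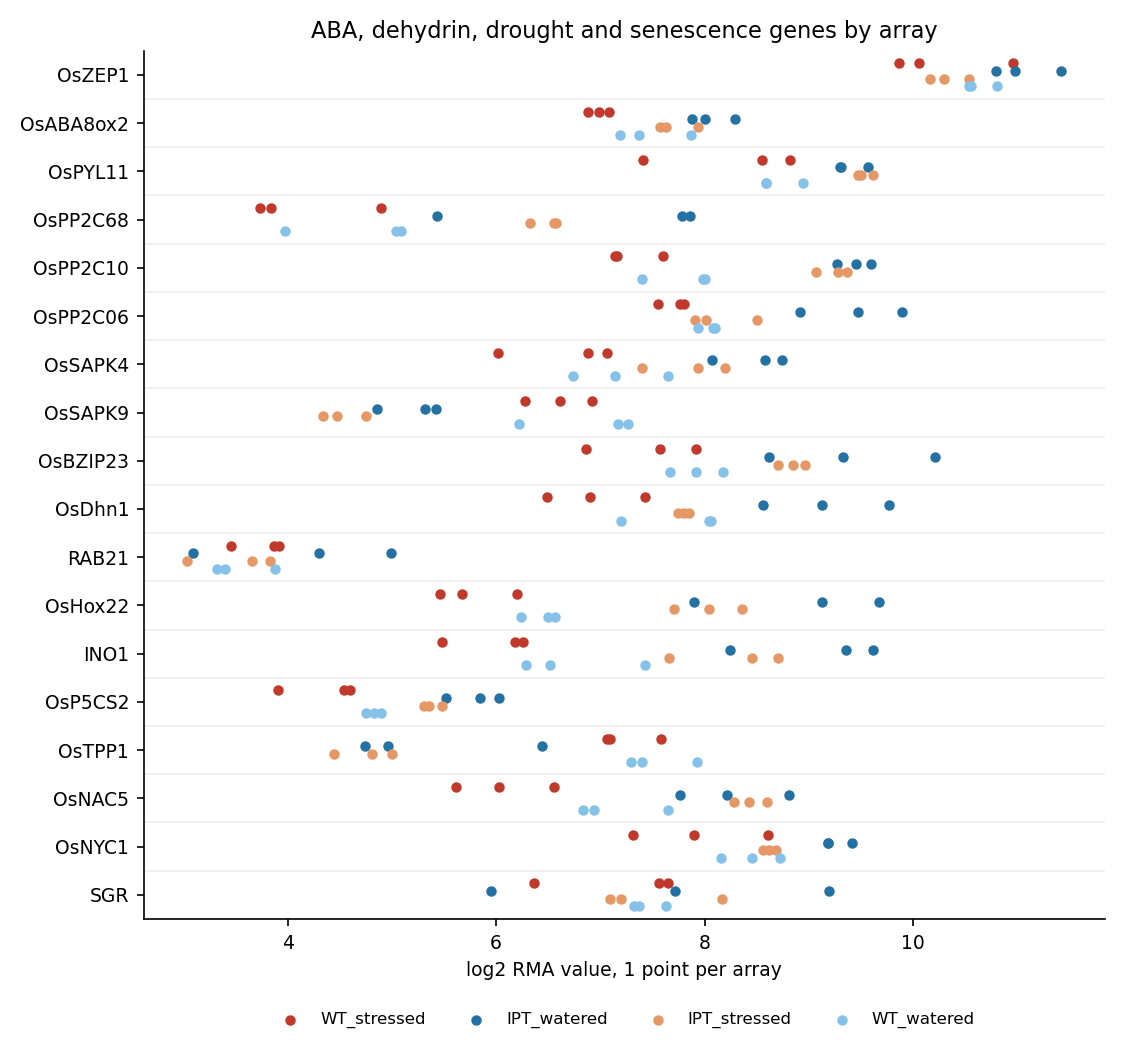
Log2 RMA value of 18 genes on each array (points), by labelled group. For OsHox22 and INO1 the 3 WT_stressed arrays lie between 5.46 and 6.26 and the 3 IPT_watered arrays between 7.90 and 9.67, while for RAB21 and SGR the groups overlap.

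Of 18 senescence genes 6 fell and 0 rose in limma (0 also at an unadjusted p under 0.05), against 32.9% and 9.86% of all genes, so the share that fell is near that of all genes. OsNAC5, a senescence and stress factor, had 6.03, 6.56 and 5.62 in WT_stressed, against 8.22, 8.81 and 7.76 in IPT_watered (4.58-fold lower, adjusted p = 0.000232). OsNYC1, a chlorophyll b reductase needed to break down the light-harvesting complex, had 8.61, 7.90 and 7.31 in WT_stressed, against 9.18, 9.41 and 9.18 in IPT_watered (2.49-fold lower, adjusted p = 0.00223). OsDOS, a zinc finger protein that delays senescence, was 2.76-fold lower, and OsMYBS3 1.96-fold lower. A second probe set of OsMYBS3 did not differ, averaging 6.49 in WT_stressed and 6.52 in IPT_watered (adjusted p = 0.909). Dimmer probe sets of OsNAC5 differed by 0.75 and -0.27 and did not pass (adjusted p = 0.151 and 0.411).

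SGR, the stay-green gene that starts chlorophyll breakdown, had 6.36, 7.65 and 7.56 in WT_stressed, against 7.72, 9.19 and 5.95 in IPT_watered, and overlapped fully (adjusted p = 0.599). OsRCCR1 and OsNOL, also of chlorophyll breakdown, did not pass on their brightest probe sets. A dimmer probe set of OsNOL averaged 3.54 in WT_stressed, at background, and 5.50 in IPT_watered, and fell by 1.96 (adjusted p = 8.54e-05). OsSAG12, a cysteine protease, averaged 4.18 ± 0.41 in WT_stressed and 3.88 ± 0.08 in IPT_watered, close to background. As labelled, OsNAC5, on its brightest probe set, and OsNYC1 were lower in stressed wild type than in watered PSARK::IPT. Exchanged, they would be higher in stressed wild type.

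Cytokinin genes split by role. Of 29 members 12 fell and 4 rose, against 32.9% and 9.86% of all genes, with a median of -0.24, equal to that of all genes. OsCKX1 and OsRR5, among the rises, lay at background in both groups, and the rises numbered 1 with array medians made equal and 1 to 6 with single arrays left out. Among the 21 members with a mean of at least 5, 12 fell and 1 rose, against 44.1% and 5.56% of genes at that level. Their median was -0.82, against -0.48 for genes at that level. The falls included receptors, phosphotransfer proteins and type-B regulators. OsHK5, a cytokinin receptor kinase, had 7.68, 7.11 and 7.52 in WT_stressed, against 9.81, 9.73 and 9.03 in IPT_watered. It was 4.25-fold lower (adjusted p = 0.000149), and OsHK4 and OsHK3 were 2.32-fold and 1.6-fold lower. A second probe set of OsHK5 differed by -3.24.

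The phosphotransfer protein OsAHP1 had 5.41, 4.90 and 4.91 in WT_stressed, against 7.0, 6.69 and 7.32 in IPT_watered (3.83-fold lower, adjusted p = 5.66e-05), and OsAHP2 was 1.79-fold lower. The type-B regulator RR21 had 6.56, 6.71 and 7.14 in WT_stressed, against 8.49, 8.20 and 8.17 in IPT_watered (2.8-fold lower, adjusted p = 6.47e-05). RR23 and RR24 were 2.42-fold and 1.77-fold lower, and RR22 did not pass. Every called member of these 3 roles was lower in WT_stressed.

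Type-A regulators, the markers of cytokinin response, had higher means in WT_stressed for 6 of 6 members, also with array medians made equal and after quantile normalization, but the arrays of 4 members overlapped. Their median difference was 0.98. OsRR6 had 7.58, 7.37 and 7.96 in WT_stressed, against 5.73, 5.73 and 7.29 in IPT_watered (2.61-fold higher, adjusted p = 0.0484). OsRR9 had 8.43, 8.04 and 9.75 in WT_stressed, against 5.31, 6.44 and 8.29 in IPT_watered, and missed the threshold (log2 difference 2.06 ± 0.78, adjusted p = 0.0523). The third IPT_watered array was the highest of its group for OsRR9, OsRR6, OsRR2, OsRR4 and OsRR1. OsRR5, the other member that passed, lay at background in both groups.

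Among genes that set the hormone's amount, 2 of 8 that activate it were lower in WT_stressed and 1 was higher. For its breakdown 2 of 5 were lower and 1 was higher. The shares of all genes were 32.9% lower and 9.86% higher, and a difference from these was not tested. LOGL6 was the rise above background. LOGL7, of the family that turns inactive cytokinin nucleotides into free bases, had 5.99, 5.48 and 5.48 in WT_stressed, against 8.47, 8.64 and 7.89 in IPT_watered (6.42-fold lower, adjusted p = 4.2e-05). LOGL3 was 2.64-fold lower, a call lost without IPT_watered replicate 1 or WT_stressed replicate 3. LOGL6 was 2.15-fold higher (adjusted p = 0.0397), but its arrays overlapped, at 5.77, 5.04 and 5.31 in WT_stressed against 3.53, 3.93 and 5.36 in IPT_watered. OsCKX11, a cytokinin oxidase that destroys the hormone, had 6.96, 7.68 and 4.19 in WT_stressed, against 9.19, 9.81 and 8.72 in IPT_watered (7.79-fold lower, adjusted p = 0.00561; log2 difference -1.92 without WT_stressed replicate 3 and -3.66 without WT_stressed replicate 2), and OsCKX4 was 2.33-fold lower. As labelled, type-A regulators averaged higher in stressed wild type than in watered PSARK::IPT; exchanged, they would average higher in watered PSARK::IPT, whose receptors and OsCKX11 would then be lower than in stressed wild type.

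**Figure D4:**
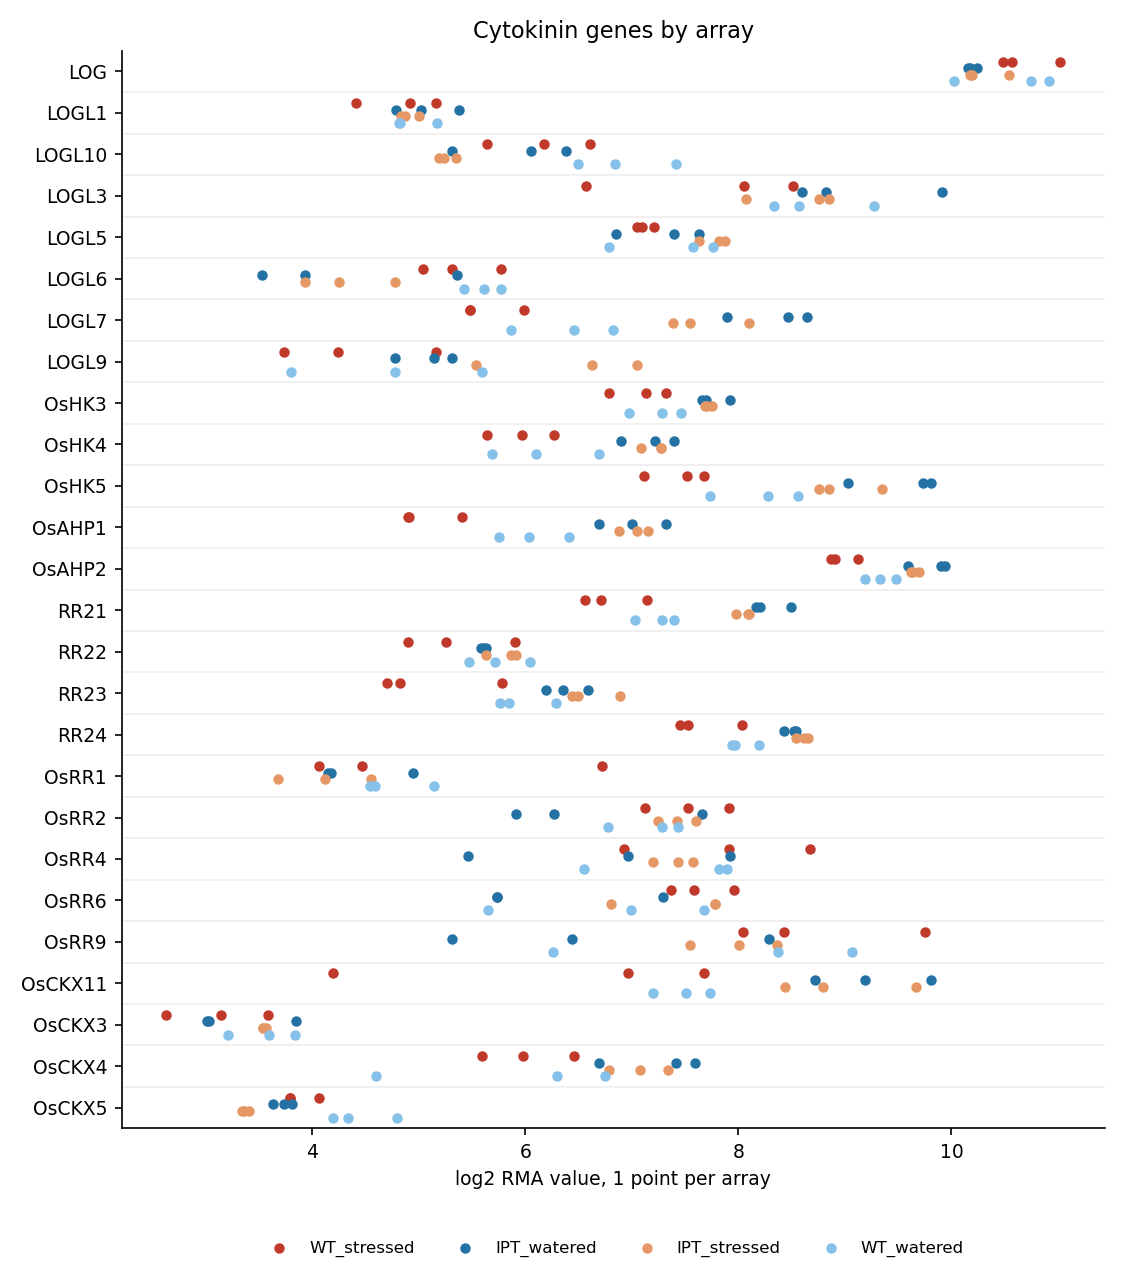
Log2 RMA value of the 26 cytokinin genes above background in at least 1 of WT_stressed and IPT_watered, on each array (points), by labelled group. The receptors, phosphotransfer proteins and RR21 are lower in WT_stressed than in IPT_watered, while OsRR6 and OsRR9 have higher means there (7.64 against 6.25, and 8.74 against 6.68).

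The difference between these 2 groups equals the labelled water effect minus the labelled genotype effect, each averaged over the other factor, and both share these arrays. The labelled genotype effect passed for 29259 probe sets (51.2%) and the labelled water effect for 234 (0.409%), a count that ran between 64 and 1056 when single arrays were left out. Under exchanged labels the first count would be that of water and the second that of genotype. For the ABA list the labelled genotype effect (PSARK::IPT minus wild type) had a median of 0.55. Of its 74 members 40 were higher and 8 lower, against 35.9% and 13.4% of all genes. The labelled water effect (stressed minus watered) of the list had a median of -0.25, with 0 called by limma. At an unadjusted p under 0.05, 25 members passed, against 7916 of all 57194 probe sets. In the fit with 1 probe set per gene, as in the list, 3238 of 17905 genes passed at that level. For OsHox22 the labelled genotype effect was 2.36 and the labelled water effect -0.76. For OsDhn1 they were 1.12 and -1.09, and the water effect of OsDhn1 did not pass (adjusted p = 0.0663). Type-A regulators had a median of -0.59 for labelled genotype and 0.55 for labelled water. OsBADH1 was the drought list member whose labelled water effect passed, at -0.63 (adjusted p = 0.0122).

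**Figure D5:**
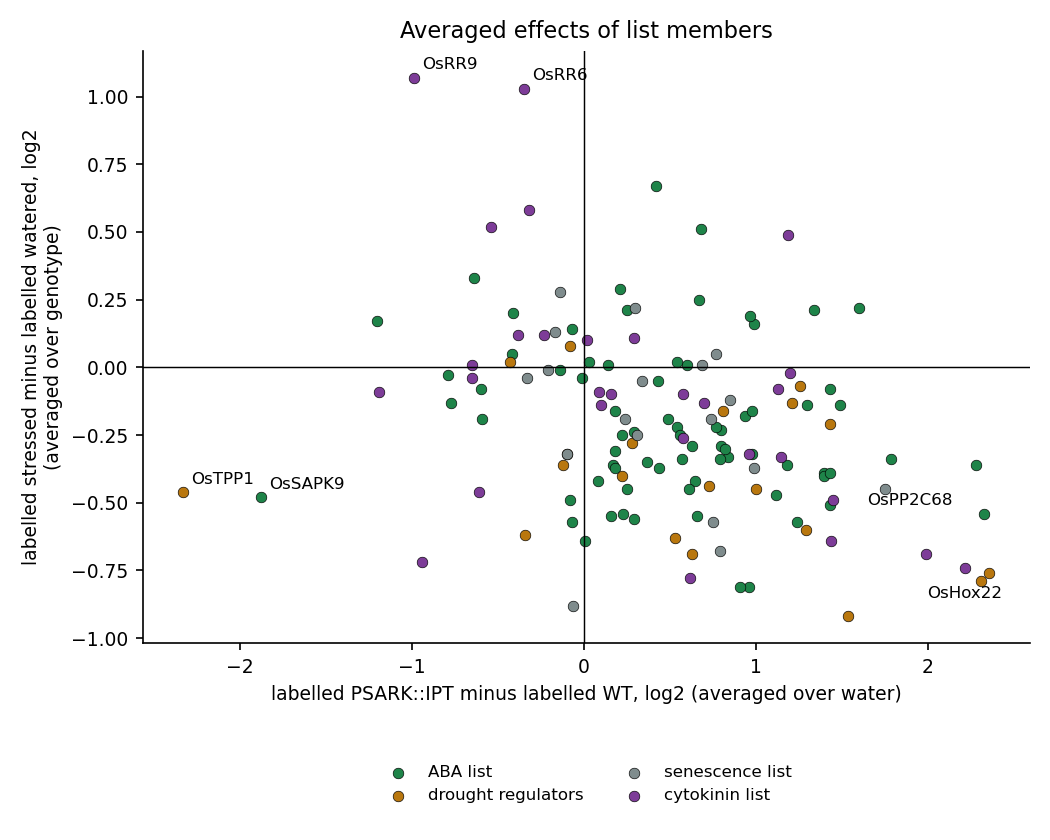
Labelled stressed minus watered effect (log2, vertical, averaged over genotype) against labelled PSARK::IPT minus wild-type effect (log2, horizontal, averaged over water), 1 point per member of 4 lists. The axes trade places if the labels of WT_stressed and IPT_watered are exchanged; OsHox22 lies at 2.36 and -0.76, OsRR9 at -0.99 and 1.07.

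The largest rise was that of OsJAZ2. OsJAZ2, a repressor of jasmonate signalling, had 8.97, 8.74 and 9.77 in WT_stressed, against 1.85, 5.49 and 3.17 in IPT_watered (50.5-fold higher, adjusted p = 0.0029). The IPT_watered arrays lay on both sides of background, and the log2 difference of 5.66 was 6.65 without IPT_watered replicate 2 and 4.83 without IPT_watered replicate 1. OsJAZ2 averaged 8.72 in IPT_stressed and had 1.99, 2.17 and 7.13 in WT_watered, with a labelled water effect that passed (adjusted p = 0.0243); the third WT_watered array stood apart, as it did for the K01193-1 reporter. Pi21, a proline-rich protein of blast susceptibility, had 10.01, 9.59 and 12.50 in WT_stressed, against 4.42, 4.43 and 7.14 in IPT_watered (41.3-fold higher, adjusted p = 0.00118), with means of 4.68 in IPT_stressed and 9.76 in WT_watered. Its log2 difference of 5.37 was 4.47 without WT_stressed replicate 3 and 6.28 without IPT_watered replicate 3. A second probe set of Pi21 averaged 8.01 in WT_stressed and 5.84 in IPT_watered, a smaller log2 difference of 2.17 (adjusted p = 0.0445).

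PAL06, a phenylalanine ammonia-lyase, was 12.2-fold higher, OsLIS, a linalool synthase, 9.85-fold, and OsWRKY76, a defence regulator, 7.65-fold. Their means were 7.43, 5.97 and 7.34 in IPT_stressed, against 5.31, 4.96 and 5.86 in WT_watered. In limma the labelled water effect passed for PAL06 (adjusted p = 0.0339) but not for OsLIS or OsWRKY76 (adjusted p = 0.115 and 0.0811). Without WT_stressed replicate 3 the log2 differences of PAL06 and OsLIS were 4.29 and 3.93, against 3.61 and 3.30 with it. CM-LOX1, a lipoxygenase, was 9.57-fold higher and ACO1, which makes ethylene, 5.73-fold; both lost the call without IPT_watered replicate 2, and CM-LOX1 also without IPT_watered replicate 1 or WT_stressed replicate 3. The log2 difference of CM-LOX1 ran between 2.50 and 4.07 without IPT_watered replicates 1 and 3, and that of ACO1 between 1.88 and 3.15 without IPT_watered replicates 2 and 3. CM-LOX1 averaged 7.89 in IPT_stressed and 5.05 in WT_watered, whereas ACO1 averaged 5.77 in IPT_stressed and 7.51 in WT_watered. OsHAK17, named as a potassium transporter, had 9.66, 9.73 and 9.62 in WT_stressed, against 7.38, 7.19 and 7.33 in IPT_watered (5.17-fold higher, adjusted p = 0.000352). OsHAK17 averaged 9.16 in IPT_stressed and 8.80 in WT_watered, and its labelled water effect passed in limma (1.36, adjusted p = 0.0406). A second probe set of OsHAK17 had a log2 difference of 0.96 (adjusted p = 0.0434). OsChia4a, a chitinase, was at background in IPT_watered and at least 3.56-fold higher in WT_stressed, chiefly through 1 array at 7.14: its log2 difference was 1.37 without WT_stressed replicate 3 and 3.16 without WT_stressed replicate 2.

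Among the 10 largest falls were OsCCA1, Hd3a and OsSPX2. OsCCA1, the morning clock factor, had 7.61, 7.67 and 7.61 in WT_stressed, against 10.51, 10.87 and 10.46 in IPT_watered (7.89-fold lower, adjusted p = 1.93e-05). OsPCL1, an evening clock gene, rose, at 7.46, 7.10 and 7.43 in WT_stressed against 4.55, 5.38 and 4.29 in IPT_watered (6.03-fold higher). OsPRR1, another evening gene, was 1.49-fold higher, a call lost in most fits without a single array, and the other 4 of 7 clock genes did not pass on their brightest probe sets. Dimmer probe sets differed, with OsPRR37 averaging 7.65 in WT_stressed and 5.47 in IPT_watered (adjusted p = 0.000132) and OsPRR73 averaging 5.36 in WT_stressed and 7.77 in IPT_watered (adjusted p = 2.55e-05). The labels give no hour of harvest. Hd3a, the mobile flowering signal made in leaves, had 5.90, 4.73 and 3.95 in WT_stressed, against 7.95, 8.78 and 8.52 in IPT_watered (11.7-fold lower, adjusted p = 7.39e-05).

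OsVIT1.2, a vacuolar iron transporter, was 12.6-fold lower, and OsRSH3, of the enzymes that make the alarmone ppGpp in chloroplasts, 7.95-fold lower. OsRPT1b, a proteasome ATPase subunit, and IMCEL2 were at background in WT_stressed and at least 6.56-fold and 5.25-fold lower. OsSPX2, of the SPX proteins that sense phosphate, had 3.80, 3.18 and 5.30 in WT_stressed, against 7.42, 7.85 and 6.29 in IPT_watered, and was at least 8.49-fold lower. The log2 difference was -3.70 without WT_stressed replicate 3, against -3.09 with it. OsSPX2 was low in IPT_stressed too, at 3.86, and high in WT_watered, at 7.40, so it followed labelled water (-3.31, adjusted p = 0.00336). Under exchanged labels it would follow genotype instead. Of 19 phosphate genes 5 fell and 4 rose, against 32.9% and 9.86% of all genes, and OsSPX5 among the rises lay at background in both groups. OsPHR2, the central regulator of phosphate starvation, was 2.22-fold lower, and the transporter gene OsPht1;3 was 2.69-fold higher.

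Probe sets of 1 gene differed widely for some leaf genes. Rubisco activase (rca) fell by 0.78 on its brightest probe set, with 12.62, 12.91 and 12.62 in WT_stressed against 13.48, 13.53 and 13.47 in IPT_watered, and by 3.09 on another one. OsPHR2 likewise differed by -1.15 and -3.50. OsrbcS and CAB2R did not pass on their brightest probe sets (adjusted p = 0.512 and 0.065), although dimmer ones were higher in WT_stressed, by 1.95 and 0.97.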

How the data were processed

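The deposited table held log2 values made by the authors with RMA (background correction, normalization between arrays, probe summary), per the submitters' processing notes; software and version are not given in the sources used here. They were used as deposited. Of 57381 probe sets, 123 control and 64 reporter ones were kept out of the tests. Names came from the array annotation, updated through RefSeq's rice table for ASM3414082v1: 22436 probe sets had 1 gene, 95 several and 34663 none listed. The probe set with the highest mean over 12 arrays stood for each of 17905 genes.

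Tests used limma 3.58.1 under R 4.3.3 (1 mean per group, 12 arrays, lmFit and eBayes; Benjamini-Hochberg over 57194 probe sets, called under 0.05). Errors of differences are moderated standard errors. An exact test of 3 arrays against 3 cannot go below p = 0.1; the number of arrays limits the precision. Background was the 95th percentile of group means of 106 foreign probe sets. Where 1 group lay there the fold is a lower bound against that level; where both did, none is given.

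The comparison, lists and members were chosen with earlier results of these data known; 7 LOG-like genes were added once the annotation was seen. Named genes were the 10 largest rises and the 10 largest falls that passed, had a protein name and showed no overlap of arrays, up to 12 called members (at least 4) of the ABA, dehydrin, senescence and cytokinin lists by p, and up to 4 of other lists. Members outside this rule were chosen, for their roles, after their values were seen. Alternatives covered model options, array weights, arrays in the fit, scaling, a minimum mean of 5, the GAPDH difference, the replicate number as a block, 1 probe set per gene and leaving out each array.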

Additional observations from a re-analysis of the deposited data

Results flagged for a closer look

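Reporter probe sets for foreign sequences lie outside the tests, and 5 of 64 read above background and above the IPT_watered arrays on arrays labelled WT_stressed, a group labelled wild type. RPTR-Os-K01193-1_at averaged 8.98 in WT_stressed and 2.08 in IPT_watered. RPTR-Os-AF292559-4_s_at averaged 7.68 in WT_stressed and 2.11 in IPT_watered, and both were also high in IPT_stressed. RPTR-Os-J01636-1_at averaged 6.37 in WT_stressed and 3.35 in IPT_watered, RPTR-Os-AJ002682-2_s_at averaged 5.14 in WT_stressed and 3.06 in IPT_watered, and RPTR-Os-AY056050-1_at averaged 4.33 in WT_stressed and 3.16 in IPT_watered. The means of J01636-1, AJ002682-2 and AY056050-1 were 5.20, 4.11 and 3.81 in WT_watered. Groups of 3 arrays were not searched for outlying arrays, but K01193-1 read 6.03 on WT_watered replicate 3, against 2.06 on replicate 1 and 2.35 on replicate 2.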

How the results depend on the processing

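Of 63 called named genes, 49 kept direction and call under every alternative except the GAPDH difference as a covariate, under which all 63 lost the call. That term reversed RAB16D (-0.01) and LOGL3 (0.15) and left 66 of 68 signs as they were. It gave 27 calls for WT_stressed minus IPT_watered, 75 for labelled water and 110 for labelled genotype, and 0 for the falls of the ABA, drought, senescence and cytokinin lists and for the cytokinin rises. OsrbcS reversed (-0.09) without IPT_watered replicate 2 and otherwise ran up to 0.48 with single arrays left out. One probe set per gene gave 7163 calls for WT_stressed minus IPT_watered, 111 for labelled water, 8330 for labelled genotype and 2 cytokinin rises. A minimum mean of 5 gave 7654, 82 and 8417 calls and 1 cytokinin rise. Array weights gave 448 calls for labelled water. Quantile normalization gave 27 ABA falls; array medians made equal gave 1 cytokinin rise and the 6 compared arrays alone gave 2. Equal medians moved the median of all genes by -0.20 and quantile normalization by 0.16.

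Leaving out single arrays gave 17756 to 25663 calls for WT_stressed minus IPT_watered, 25393 to 31421 for labelled genotype, 33 to 45 ABA, 11 to 12 drought, 4 to 8 senescence and 10 to 12 cytokinin falls, and 1 to 6 cytokinin rises. The labelled water count of 234 ran from 64 to 1056: 73, 1056 and 64 without IPT_stressed replicates 1, 2 and 3, 67 and 77 without IPT_watered replicates 1 and 2, 142 and 949 without WT_stressed replicates 2 and 3, and 95 and 90 without WT_watered replicates 1 and 2. The replicate numbers did not pair arrays (correlations of deviations 0.038, -0.01 and -0.007); with them as a replicate block 24227 probe sets passed for WT_stressed minus IPT_watered, 29385 for labelled genotype and 550 for labelled water.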

Other observations

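Plasma membrane aquaporins (PIP), channels that carry water across cell membranes, were looked at after the values were seen. Of 10 genes 7 fell and 2 rose in WT_stressed, against 32.9% and 9.86% of all genes, and OsPIP2;8 among the rises lay at background in both groups. All members but OsPIP2;5 and OsPIP2;8 had a mean of at least 5. Of all genes at that level 44.1% fell and 5.56% rose. OsPIP1;1 averaged 9.65 in WT_stressed and 12.57 in IPT_watered, with 12.23 in IPT_stressed and 10.37 in WT_watered. OsPIP2;1 and OsPIP2;2 both differed by -1.32, whereas OsPIP2;7 averaged 12.62 in WT_stressed and 12.05 in IPT_watered. The median labelled genotype effect of the family was 1.25 and the median labelled water effect -0.04.

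Small heat shock proteins, chaperones that hold unfolded proteins, and JAZ repressors were also looked at after the values were seen. Of 19 small heat shock genes 7 fell and 0 rose in limma (0 also at an unadjusted p under 0.05), near the 32.9% of all genes that fell, led by OsHsp16.0, which averaged 5.32 in WT_stressed and 8.10 in IPT_watered. Of 13 JAZ genes 3 rose and 2 fell, against 9.86% and 32.9% of all genes. OsJAZ10 averaged 8.36 in WT_stressed and 6.30 in IPT_watered, whereas OsJAZ4 averaged 8.53 in WT_stressed and 9.60 in IPT_watered.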
